A study of Mus musculus with 6 samples.

Results

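Irx3, Irx5 and Irx6 are the 3 Iroquois genes that lie together on mouse chromosome 8, and Ezh2 occupancy was followed across them in Th1 and Th2 cells. The interval of 915 kb ran from 94300000 to 95215000 in the mm9 build and held 915 bins of 1 kb. Of these, 8 held no read in any of the 5 libraries used. Over chromosomes 1 to 19 and X, 2463072 such bins held any read in those 5 libraries. The genes and the interval had been chosen by their Ezh2 signal over input in these same libraries, so the values over input are given as a description, with no test. The positions used for the genes, 94322000 for Irx3, 94882000 for Irx5 and 95198000 for Irx6, are approximate and are not annotated start sites. Irx5 lies 560 kb from Irx3 and 316 kb from Irx6.

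Iroquois proteins are homeodomain transcription factors of the TALE class, and in mammals their genes stand in clusters of 3. In the mouse, Irx3 and Irx5 act together in the patterning of the limb and in the heart, and Irx5 and Irx6 act in bipolar cells of the retina. Ezh2 is the enzyme with which Polycomb repressive complex 2 adds methyl groups to histone H3, and genes of developmental transcription factors are well-known targets of that complex in cells that do not use them.

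Naive (CD44lowCD62Lhigh) CD4+ T cells from spleens of C57BL/6 mice had been cultured for 5 days, with 2 days of stimulation through antibodies to TCRβ and CD28 and then 3 days without it, in 15 ng/ml IL-2 throughout. The Th1 cultures also had 10 ng/ml IL-12 and an antibody to IL-4, and the Th2 cultures 100 ng/ml IL-4 and an antibody to IFN-γ. Each cell type gave an Ezh2 pull-down with a polyclonal antibody, a control pull-down with polyclonal rabbit IgG, and input DNA. There was 1 library in each group, so no spread between replicates could be measured, and all intervals below are 95% intervals that cover counting error only. The number of mice behind a library was not given, and genes that mark Th1 and Th2 cells were not placed on these reads.

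The libraries used here held between 9326717 and 15578675 distinct positions on chromosomes 1 to 19 and X, with 10809666 for Th1 Ezh2 and 14963599 for Th2 Ezh2. A position is a distinct interval in the deposited file, counted once however many reads shared it. The Th2 control antibody file holds no chromosome 8, so the control antibody was available for Th1 only. The Ezh2 libraries carry different run labels while the inputs share one, so a difference between the Ezh2 libraries of Th1 and Th2 cannot be told apart from one between runs.

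In the RefSeq annotation of a later build (GRCm38.p6), all 3 genes were found, with Fto as the nearest protein-coding gene before Irx3 and Mmp2 after Irx6. Between Irx3 and Irx5 it lists 8 genes, of which 7 are long non-coding RNAs and 1 is a small nuclear RNA, and 0 are protein-coding. The first of them after Irx3 is Irx3os and the last before Irx5 is Crnde, and between Irx5 and Irx6 it lists 0 genes. The RefSeq promoter table (250 bases before to 50 after a start) held Irx3 and both of these neighbours, but not Irx5 or Irx6. Printed are the promoters of Irx3, at chr8:91801605-91801904 on the minus strand, and of Crnde, at chr8:92356071-92356370 on the minus strand. They belong to the only member in the table and to the gene listed last before Irx5, and the promoter of Irx3os is not printed. Those coordinates are GRCm38.p6 and cannot be set against the mm9 coordinates of the reads. The capitals mark each CG, the dinucleotide that is dense in the CpG-rich promoters typical of Polycomb targets in mammals.

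Irx3: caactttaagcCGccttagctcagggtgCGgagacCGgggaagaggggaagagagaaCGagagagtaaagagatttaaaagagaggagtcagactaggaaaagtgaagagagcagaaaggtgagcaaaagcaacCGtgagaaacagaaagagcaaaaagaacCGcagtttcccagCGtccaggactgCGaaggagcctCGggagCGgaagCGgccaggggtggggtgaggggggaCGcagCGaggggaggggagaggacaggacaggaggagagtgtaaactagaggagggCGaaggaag

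Crnde: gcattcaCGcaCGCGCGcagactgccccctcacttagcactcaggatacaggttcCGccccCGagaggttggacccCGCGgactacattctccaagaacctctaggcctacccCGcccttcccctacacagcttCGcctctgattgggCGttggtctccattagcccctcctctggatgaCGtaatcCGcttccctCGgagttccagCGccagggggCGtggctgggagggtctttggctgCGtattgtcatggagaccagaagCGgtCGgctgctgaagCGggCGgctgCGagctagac

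The Irx3 promoter holds 14 CG in 300 bases and the Crnde promoter 22, where the median of all 32851 promoters in the table is 7. At least 14 CG are found in 36.3% of all promoters and at least 22 in 23.1%. The ratio of observed to expected CG was 0.748 for Irx3 and 0.752 for Crnde, against a median of 0.384. The promoter of Irx3os holds 6 CG, with a ratio of 0.285. By this count Irx3 and Crnde lie above the median of mouse promoters and Irx3os below it, and the matches are letters in these windows only.

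The first question was where in the interval Ezh2 lay. It stood in 2 compact domains, at Irx3 and at Irx5. At Irx6 it was close to the level of the spans between the genes in Th1, and in Th2 its value in the 20 kb window was 1.36 times theirs (1.01 to 1.84). In the 20 kb window around Irx5 (10 kb either side of its position), Ezh2 was 8.21-fold over input in Th1 (6.97 to 9.72), and in Th2 it was 16.3-fold (13.3 to 20.3). Around Irx3 the Th1 value was 5.66-fold (4.71 to 6.83) and the Th2 value 8.90-fold (7.31 to 10.9). Around Irx6 the Th1 value was 0.909-fold (0.656 to 1.25) and the Th2 value 1.29-fold (0.963 to 1.75), so with library totals as the scale a fold above 1.75 at Irx6 lies outside the interval in either cell type.

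The order Irx5, Irx3, Irx6 held in both cell types. The fold at Irx5 was 1.45 times that at Irx3 in Th1 (1.13 to 1.86) and 1.84 times in Th2 (1.37 to 2.47), and the fold at Irx3 was 6.22 times that at Irx6 in Th1 (4.27 to 9.06) and 6.88 times in Th2 (4.77 to 9.87). The genes were chosen on these folds, so the order and its intervals are a description of these libraries and no test of a difference between the genes.

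At Irx3 the window held 577 Ezh2 positions in Th1 and 1129 in Th2, against 147 and 109 input positions and 87 of the Th1 control antibody. At Irx5 the Ezh2 positions were 968 in Th1 and 1787 in Th2, against 170 and 94 of input and 98 of the control antibody. At Irx6 they were 65 in Th1 and 116 in Th2, against 103 and 77 of input and 60 of the control antibody. Both Ezh2 libraries were thus high at Irx3 and Irx5 and low at Irx6, while the inputs and the control antibody were low at all 3 genes. The control antibody was 0.989-fold over the Th1 input at Irx3 (0.749 to 1.30), 0.963-fold at Irx5 (0.743 to 1.24) and 0.973-fold at Irx6 (0.696 to 1.35).

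**Figure D1:**
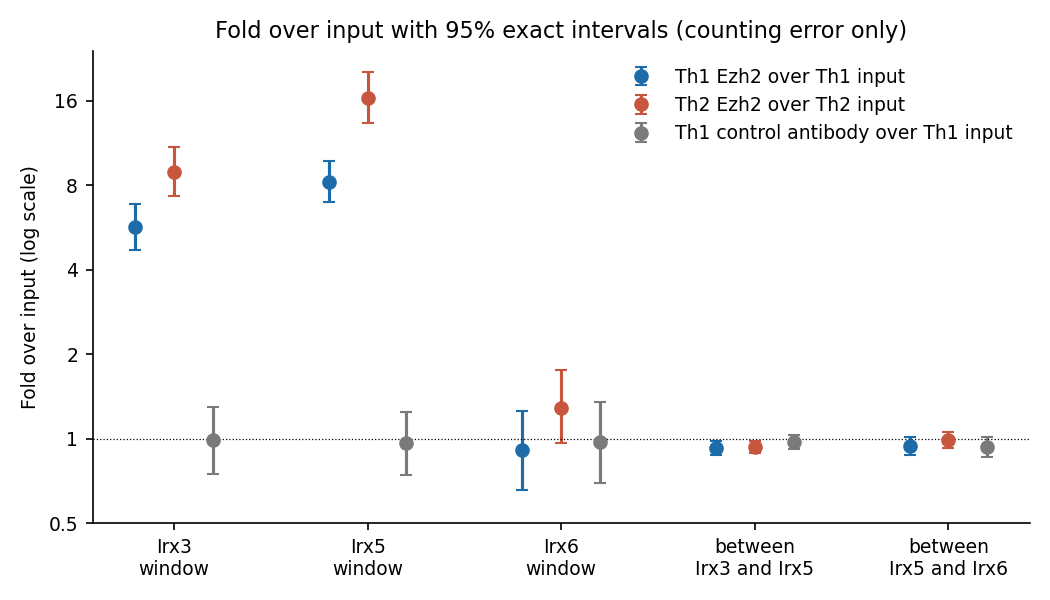
Fold over input (log scale) in the 20 kb windows at Irx3, Irx5 and Irx6 and in the spans between the windows, for Ezh2 in Th1, Ezh2 in Th2 and the control antibody in Th1. Points are single libraries over the input of the same cell type, and bars are 95% exact intervals for counting error. Ezh2 stands at 5.66-fold or more at Irx3 and Irx5 and at 1.29-fold or less elsewhere, with library totals as the scale.

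The long spans between the genes carried no such signal. Over the 540 kb from the Irx3 window to the Irx5 window, Ezh2 in Th1 was 0.928-fold over input (0.878 to 0.980) and in Th2 0.934-fold (0.887 to 0.982), with the control antibody at 0.975-fold (0.922 to 1.03). Over the 296 kb from the Irx5 window to the Irx6 window the Th1 value was 0.940-fold (0.872 to 1.01) and the Th2 value 0.993-fold (0.925 to 1.06), with the control antibody at 0.934-fold. With totals taken from background bins in place of all positions, these spans stood between 1.31-fold and 1.40-fold, so whether they lie just below or just above input is set by the scale.

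A ratio of a gene window to the spans does not depend on that scale. The fold at Irx3 was 6.07 times that of both spans together in Th1 (5.03 to 7.36) and 9.34 times in Th2 (7.63 to 11.5). At Irx5 it was 8.80 times in Th1 (7.43 to 10.5) and 17.1 times in Th2 (13.9 to 21.4). At Irx6 it was 0.976 times in Th1 (0.702 to 1.35), and the Th2 value of 1.36 became 1.01 with a window of 5 kb either side. The control antibody lay between 1.00 and 1.03 times at the 3 genes.

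**Figure D2:**
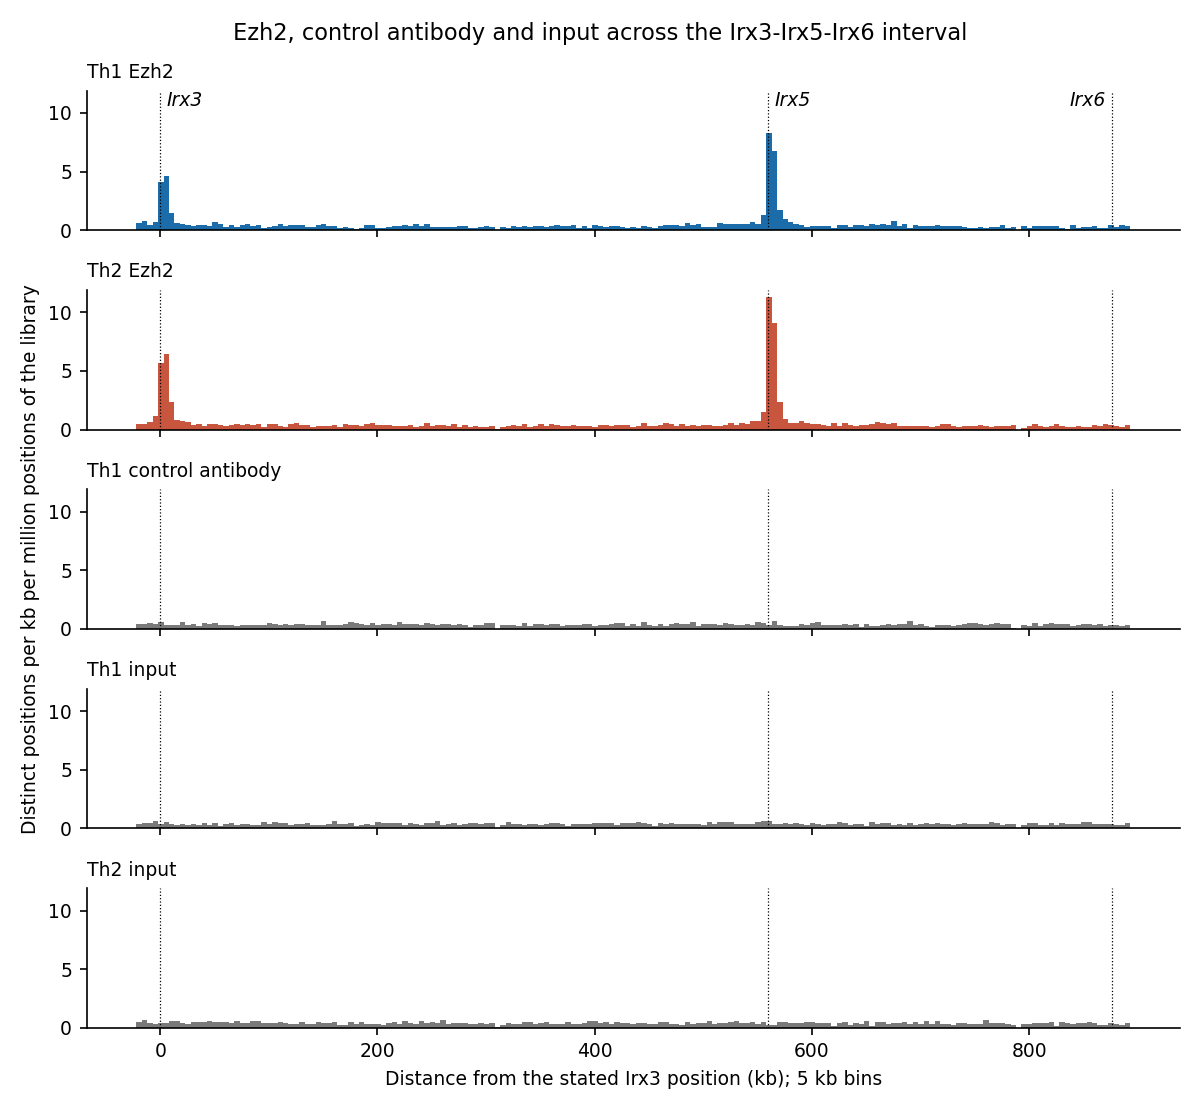
Distinct positions per kb, scaled to 1000000 positions of the library (vertical axis), in 5 kb bins across the interval, by distance from the stated Irx3 position in kb, for 5 libraries on 1 scale, with dotted lines at the 3 genes. The highest bin, at Irx5, reaches 8.33 in Th1 Ezh2 and 11.3 in Th2 Ezh2, while no bin of the inputs or the control antibody exceeds 0.686.

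Single bins were then called where Ezh2 exceeded the input of the same cell type by an exact binomial test over all bins of the genome (adjusted p below 0.05, at least 2-fold, at least 10 positions). In Th1, 22 bins of the 487 tested in the interval were called, where 0.992% of all tested bins were called over chromosomes 1 to 19 and X. In Th2, 28 of 582 were called, where the share over all tested bins was 1.21%. Since the interval was chosen on this contrast, nothing is read from that excess.

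The called bins stood at the same 2 genes in both cell types. All 22 Th1 bins and all 28 Th2 bins lay inside the domains at Irx3 and Irx5, and the 22 were called in both cell types. In the Irx6 window 0 of 5 tested bins were called in Th1 and 0 of 9 in Th2, and the other bins there held under 10 positions, too few to be tested. The control antibody gave 0 called of 465 tested bins in the interval, against 0.00151% over all bins tested.

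When both Ezh2 libraries were set together against both inputs, 34 of 886 bins were called, against 1.28% of all bins. Merging bins with a gap of at most 1 gave the domain at Irx3, from 94318001 to 94334000 (16 kb), and the domain at Irx5, from 94876001 to 94894000 (18 kb), plus 3 single bins. Over the Irx3 domain, Ezh2 in Th1 was 7.32-fold over input (5.97 to 9.05), and in Th2 it was 10.5-fold (8.48 to 13.2). The Irx5 domain reached 9.85-fold in Th1 (8.25 to 11.8), and in Th2 its value was 17.5-fold (14.1 to 21.9).

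Both domains together span 34 kb, which is 3.72% of the interval. They held 30.6% of its Ezh2 positions in Th1 and 36.2% in Th2, against 4.50% and 3.76% of its input positions. Of the single bins, 1 lay at the Irx6 position itself, from 95198001 to 95199000, where Ezh2 gave 7 positions in Th1 and 12 in Th2 against 2 and 1 of input and 4 of the control antibody. It was the only bin of the Irx6 window called in the pooled comparison and was called in neither cell type alone. The other 2 single bins lay 193 kb past Irx3 and 61 kb before Irx5, each with 11 or 14 Ezh2 positions in Th2, 6 or 5 in Th1 and at most 2 in an input, and with 6 and 0 of the control antibody.

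Relative to the stated gene positions, which are approximate, both domains reached further toward higher coordinates than toward lower ones. At Irx3 the domain began 4 kb before and ended 12 kb after it, and at Irx5 6 kb before and 12 kb after. The bin with the most Ezh2 positions was the same in both cell types. At Irx3 it was the bin from 2 to 3 kb past the position, with 76 positions in Th1 and 128 in Th2, over 5 and 3 of input. At Irx5 it was the bin from 0 to 1 kb, with 106 in Th1 and 198 in Th2, over 12 and 4 of input.

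At Irx6 the highest bin within 20 kb held 8 Ezh2 positions in Th1 and 14 in Th2 and lay at different places. Those were 14 kb and 7 kb before the position, and neither bin was called.

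**Figure D3:**
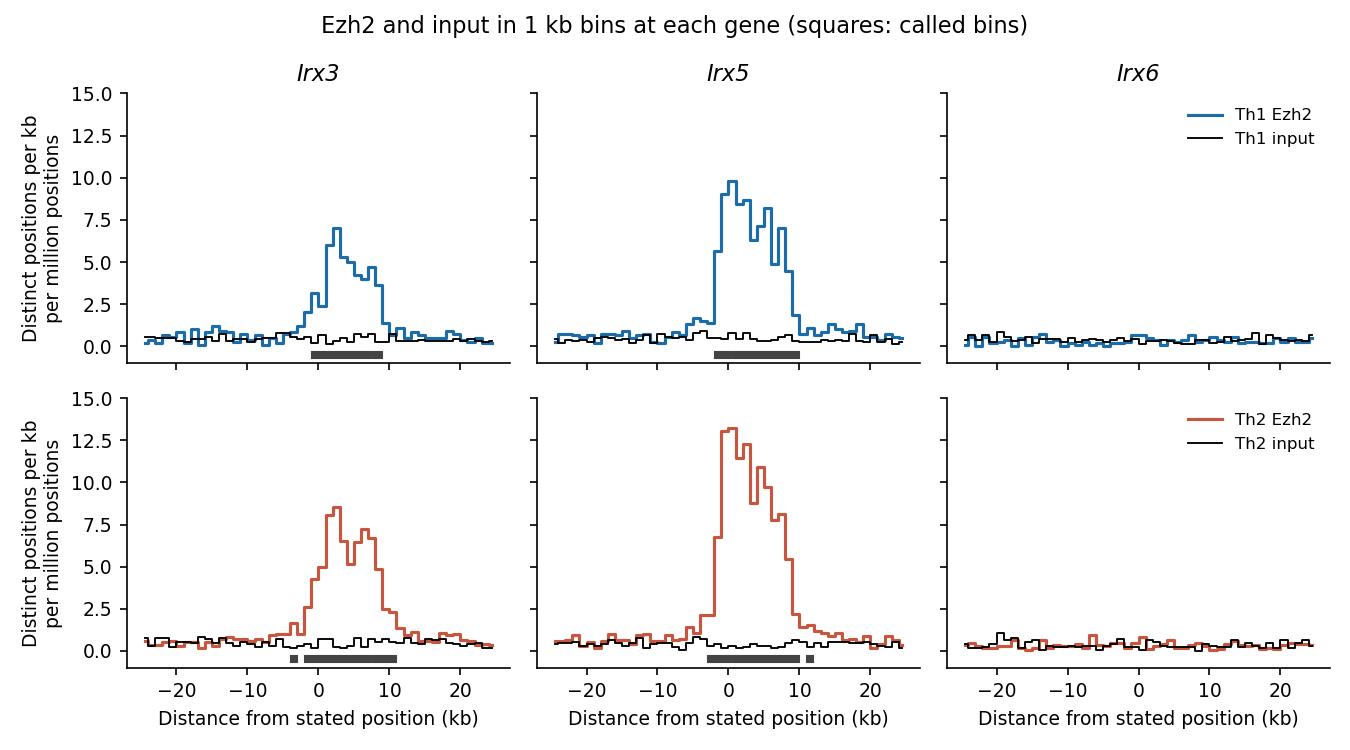
Distinct positions per kb, scaled to 1000000 positions of the library, in 1 kb bins, by distance in kb from the stated position of Irx3, Irx5 and Irx6 (columns), in Th1 (top) and Th2 (bottom). Coloured lines are Ezh2, black lines the input of the same cell type, and squares mark bins called in that cell type. Irx3 and Irx5 show a plateau of about 10 kb in both cell types and Irx6 none.

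Outside the domains the level was lower, which the calling of the edges sets in part. In the first 5 kb outside the Irx3 domain, Ezh2 was 0.705-fold over input in Th1 on the low side (0.409 to 1.18) and 1.72-fold on the high side (0.987 to 3.01). In Th2 it was 2.08-fold (1.30 to 3.43) and 1.29-fold (0.841 to 2.00) there. Outside the Irx5 domain the same distance gave 0.973-fold (0.574 to 1.62) on the low side and 2.77-fold (1.69 to 4.64) on the high side for Th1. For Th2 it gave 2.17-fold (1.29 to 3.79) and 2.09-fold (1.35 to 3.32). All of these values were under 3-fold. Between 5 and 10 kb out, all 8 values lay between 1.26-fold and 1.90-fold. The highest, for Th2 on the high side of Irx3, had an interval of 1.21 to 3.05. Between 10 and 20 kb out, the values lay between 0.730-fold and 1.60-fold. Between 20 and 50 kb out, all 8 values lay between 0.833-fold and 1.30-fold.

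The second question was whether Th1 and Th2 differed at these genes. In the Irx3 window, Ezh2 over input was 1.57 times as high in Th2 as in Th1 (1.19 to 2.08), in the Irx5 window 1.99 times (1.52 to 2.62) and in the Irx6 window 1.42 times (0.912 to 2.22). In the spans the same ratio was 1.01 (0.934 to 1.08) from Irx3 to Irx5 and 1.06 (0.952 to 1.17) from Irx5 to Irx6. Over the 2902 pooled regions of at least 3 kb the median of this ratio was 1.22, and over the 565 of at least 10 kb it was 1.25. Over the domains in place of the windows, the ratio was 1.43 at Irx3 (1.06 to 1.95) and 1.77 at Irx5 (1.33 to 2.37). The share of those 565 regions with a higher ratio than the Irx3 domain was 27.6%, and 4.60% had a higher one than the Irx5 domain. Among the 2902 regions these shares were 30.6% and 11.9%.

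The fold at Irx5 is touched by the inputs. The Th1 input was 1.49 times as dense as the Th2 input in the Irx5 window (1.15 to 1.94), but 1.11 times at Irx3 (0.863 to 1.44) and 1.10 times at Irx6, with intervals that hold 1. With the Th1 input as background for both, the Th2 fold at Irx5 was 10.9 in place of 16.3, and with the Th2 input the Th1 fold was 12.3 in place of 8.21. What part the inputs have in the difference at Irx5 was not tested beyond these values.

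Leaving out the inputs and changing the scale each moved these ratios. By library totals, Th2 held 1.41 times the Ezh2 positions of Th1 at Irx3, 1.33 times at Irx5 and 1.29 times at Irx6, where the ratios over input were 1.57, 1.99 and 1.42. With the inputs kept and the median ratio of the 2902 regions as the scale, the values were 1.29, 1.64 and 1.17. With both changes, relative to the median of the 2902 regions, Th2 held 1.21 times the Ezh2 positions of Th1 in the Irx3 window (1.09 to 1.34), 1.14 times at Irx5 (1.05 to 1.23) and 1.10 times at Irx6 (0.805 to 1.51). A ratio of at least 2 either way was found in 42 of the 2902 regions (1.45%), and neither Irx domain was among them. Of all 2902 regions, 17.5% leaned further toward Th2 than the Irx3 domain and 24.6% further than the Irx5 domain.

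The domains were called longer in Th2. At Irx3 the called stretch measured 10 kb in Th1 and 15 kb in Th2, and at Irx5 12 kb and 15 kb. With the libraries thinned to equal depth, Th1 was at 10 kb and Th2 at 13 kb at Irx3, and the lengths at Irx5 stayed at 12 kb and 15 kb. The width at 0.5 of the greatest mean over 3 bins, which needs no call, was 9 kb in Th1 and 10 kb in Th2 at Irx3, and 10 kb in both at Irx5. By that measure the domains differed by at most 1 bin between the cell types.

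Both domains stood in the upper part of the wide Ezh2 regions of these libraries by fold over input. Of the 565 pooled regions of at least 10 kb, the Irx5 domain ranked 1 by fold over input in Th2 and 16 in Th1, and the Irx3 domain ranked 62 and 96. Among all 2902 regions of at least 3 kb, the Irx5 domain ranked 2 in Th2 and 24 in Th1, and the Irx3 domain 85 and 139. The Th2 ranks are over the Th2 input, which was the thinner one at Irx5: the Th2 fold of the Irx5 window fell from 16.3 to 10.9 over the Th1 input, and no rank was computed over that input. The medians of the 565 regions were 6.50-fold in Th2 and 5.06-fold in Th1, and those of the 2902 regions 4.59-fold and 3.79-fold. By length, the Irx3 domain (16 kb) and the Irx5 domain (18 kb) were near the median of 14.0 kb of the 565 regions. Among all 2902 regions, where the median was 5 kb, they were long and ranked 207 and 162 by length. These ranks describe the choice of the interval as well as the genes, and they carry no test.

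The 3 regions nearest to the Irx5 domain in both folds at once, of 563 compared by distance on the log2 scale, were chromosome 5 from 75539001 to 75553000 (8.62-fold in Th1, 16.9-fold in Th2), chromosome 11 from 21889001 to 21910000 (10.6-fold and 15.5-fold) and chromosome 7 from 138683001 to 138704000 (11.3-fold and 15.9-fold). That likeness rests on 2 values per region, and the genes in these regions were not placed.

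**Figure D4:**
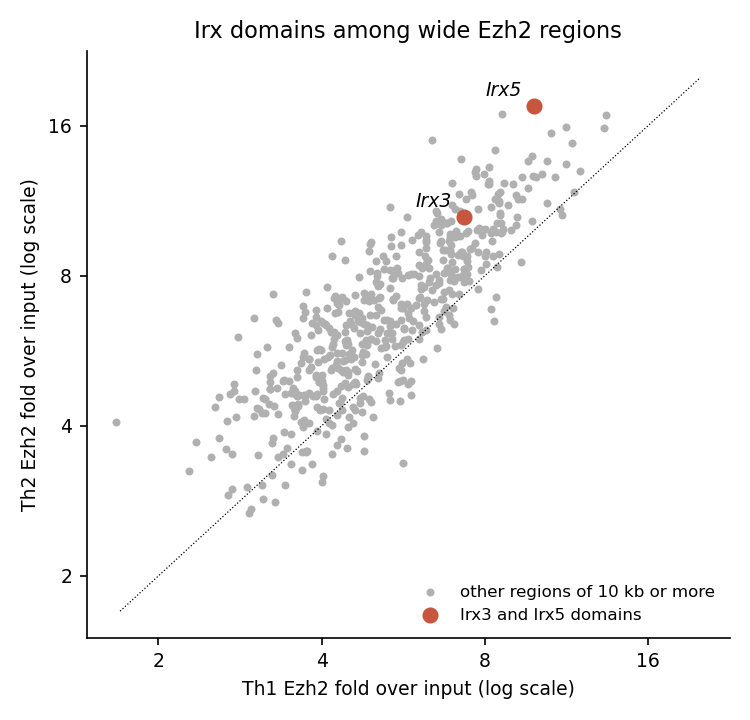
Fold of Ezh2 over input in Th1 (horizontal, log scale) and in Th2 (vertical, log scale) for the 565 pooled regions of at least 10 kb, each a grey point, with the Irx3 and Irx5 domains in red. The dotted line marks equal folds. The Irx5 domain is the highest point on the Th2 axis, at 17.5-fold over the Th2 input, and the Irx3 domain lies at 7.32-fold in Th1 and 10.5-fold in Th2.

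Repeated reads did not gather at the domains. Reads per position were 2.06 at Irx3, 2.07 at Irx5 and 2.22 at Irx6 in Th1 Ezh2, against 2.25 over that library, and 1.85, 1.90 and 1.87 in Th2 Ezh2, against 2.04.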

How the data were processed

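Per the submitters' processing notes, CASAVA and the mm9 build were used; alignment settings, read extension and filters are not given in the sources used here. Per the labels' protocols, fragments of 170 to 250 bp went through 18 PCR cycles and 36 sequencing cycles. The deposited files hold raw read counts, 1 line per interval of 119 bases without strand, with no normalization by the authors. Here each line counted once at its midpoint in 1 kb bins, scaled by the lines on chromosomes 1 to 19 and X. Reads of both strands on 1 interval could not be told apart. Folds carry exact Clopper-Pearson intervals, and ratios of folds conditional exact intervals (scipy 1.17.1, numpy 2.4.6). Bins were called by an exact binomial test (one-sided, adjusted after Benjamini and Hochberg), with 0.5 added to each count for the fold. Such calls compare libraries, not cell types, and no p-value is given. The steps were tested on simulated data that held counting error only, with no further spread between libraries. Named were the 3 genes, every domain of at least 2 kb and the 3 regions most like the Irx5 domain. The members, windows and lists were chosen with earlier results of these data known. Gene positions came with the choice of the interval, since no mm9 annotation was used. Alternatives were other windows, all reads, other inputs, the control antibody, background scaling (totals from the lower part of all 10 kb bins, ranked by Ezh2 over input and divided at the median), other bins, thresholds and gaps, and equal depth.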

Additional observations from a re-analysis of the deposited data

How the results depend on the processing

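Ezh2 at Irx3 and Irx5 was at least 3.83-fold over its background under every window, background and scale tried. The Irx6 window had 0 called bins in either cell type under every setting with 1 kb bins, except all deposited reads and background scaling. All deposited reads gave 1 called bin at Irx6 in Th1 and 2 in Th2, where 3.83% and 5.83% of all tested bins were called. Background scaling gave 1 in Th2, where 3.59% of all tested bins were called. A window of 5 kb either side gave 7.60-fold and 13.1-fold at Irx3 (Th1, then Th2) and 10.1-fold and 21.5-fold at Irx5, and 20 kb gave 3.83-fold and 4.64-fold, and 5.67-fold and 8.41-fold. Background scaling gave 8.07-fold and 12.5-fold at Irx3, 11.7-fold and 23.0-fold at Irx5, 1.30-fold and 1.82-fold at Irx6. It also reversed the span from Irx3 to Irx5, to 1.32-fold and 1.31-fold, and gave 1.34-fold and 1.40-fold from Irx5 to Irx6. This scale takes its totals from bins picked for low Ezh2, which raises the folds by construction. With the input of the other cell type, Irx5 was at 12.3-fold and 10.9-fold and the Irx3 to Irx5 span in Th2 at 0.984-fold. The ratio of gene to spans with 20 kb either side was 4.26 and 5.07 at Irx3 and 6.31 and 9.18 at Irx5, and with 5 kb 11.7 at Irx3 and 1.01 at Irx6, both in Th2. Called bins in the interval numbered 14 and 18 with 2 kb bins, 46 and 67 with all reads and 39 and 44 with background scaling, against 22 and 28. The share called over all tested bins changed too, from 0.992% and 1.21% in the main setting. It was 1.14% and 1.37% with 2 kb bins, 3.83% and 5.83% with all reads and 4% and 3.59% with background scaling. Of the bins called in the interval with all reads, 27 and 31 lay in the domains, and with background scaling 29 and 32. The Th1 to Th2 ratio, 0.829 at Irx3 and 0.879 at Irx5 relative to the median, was 0.707 and 0.750 by library totals, and at Irx5 0.799 by background scaling. Over input, and relative to the median of that ratio over the 2902 regions, it was 0.612 at Irx5. Equal depth and the width at 0.5 of the greatest mean were added after seeing the data and changed no length of a domain by more than 1.5 times. No paired analysis was possible because a group holds a single library. Of the alternatives, 83 values lay within the interval or the 1.5 times set for them, 35 lay outside and 2 reversed.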
